A study of Mus musculus with 6 samples.

Results

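Interferon-stimulated genes are described here in alveolar macrophages, phagocytes that live in the air spaces of the lung, from mice with and without the gene for the flavoprotein subunit of succinate dehydrogenase, Sdha. The 42 genes were listed by name as interferon signalling factors, antiviral effectors, interferon-inducible GTPases and immunoproteasome genes, and all 42 have a row among the 23282 rows of the deposited count table. The macrophages were isolated from lung by cell sorting, gated as positive for CD45, CD11c, F4/80 and SiglecF and negative for CD11b. The wildtype group (WT) held 3 libraries, and the Sdha-KO group held 3 libraries from mice with floxed Sdha and LysM-Cre, a Cre driven from the myeloid Lyz2 locus, which acts in other myeloid cells as well. No agent or infection is named for either group, and the sources used here do not give the age, sex or strain of the mice, or say whether a library came from a single mouse or a pool. Each replicate number is also a batch number, so that 3 batches hold 1 library of each genotype.

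Type I and type II interferons are secreted proteins that warn cells of infection. Their receptors activate JAK kinases and STAT proteins. STAT complexes bind DNA elements called ISRE and GAS, the first with STAT2 and IRF9 in the complex, and the genes so induced block viral entry, translation and replication, coat vacuoles that hold microbes, and widen antigen presentation. In the lung, alveolar macrophages are known as a main early source of type I interferon after viral infection. The genes below are ordered by these roles.

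The elements are shown first because part of the members share them at the level of sequence. RefSeq promoters (GRCm38.p6, the assembly also called mm10) run from 250 bases before to 50 bases after a gene's start, and 33 of the 42 members had one. The ISRE core was searched as GAAA, any 2 bases and GAAA, on both strands (TTTC, any 2 bases and TTTC where the other strand holds it), and GAS as TTCNNNGAA, which matches itself on the other strand. The ISRE core was in the promoters of 17 of the 33 members (51.5%), against 3.44% of all 32851 promoters and 3.99% of all 27025 genes. GAS was in those of 10 members (30.3%), against 8.3% of promoters and 9.55% of genes. The stretches printed are those of the 4 members that held a match before their start and whose 2 genotypes did not overlap in level. That of Ifit1 was added after its values were seen. Capitals mark the match, and overlapping matches run together.
Isg15 (chr4:156200842-156200931, minus strand): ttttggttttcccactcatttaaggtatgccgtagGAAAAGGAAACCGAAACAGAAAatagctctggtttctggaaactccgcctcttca
Ifitm2 (chr7:140955962-140956051, minus strand): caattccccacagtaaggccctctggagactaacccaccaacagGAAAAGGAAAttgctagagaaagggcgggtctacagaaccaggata
Ifit1 (chr19:34640754-34640843, plus strand): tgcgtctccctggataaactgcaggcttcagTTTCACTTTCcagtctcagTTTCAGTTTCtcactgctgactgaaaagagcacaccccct
Stat2 (chr10:128270248-128270337, plus strand): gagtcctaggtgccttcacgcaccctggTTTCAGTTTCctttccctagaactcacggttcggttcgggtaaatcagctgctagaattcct
Irf1 (chr11:53769883-53769972, plus strand): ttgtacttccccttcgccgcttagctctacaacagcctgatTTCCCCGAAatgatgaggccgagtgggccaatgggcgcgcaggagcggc
Isg15 held 3 overlapping ISRE cores between 78 and 57 bases before its start, Ifit1 held 2, and Ifitm2 and Stat2 held 1 each. The Irf1 match is to GAS, 90 to 82 bases before the start, and no ISRE core was found in its window. A match is a description of the letters and not evidence of binding in these cells.

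Total counts ranged from 5400160 to 8472907 per library, and both batch 1 libraries stood apart. Batches 2 and 3 shared 3447 genes at 100 counts or more per library, and of these 136 had no count in WT 1 and 612 had none in Sdha-KO 1. Among the 42 members, 25 had no count in WT 1 and 31 had none in Sdha-KO 1, against 2 to 13 in the other 4 libraries. For the members whose fitted differences are printed in full, values without batch 1 stand beside them where batch 1 moves them. In those 4 libraries sex also went with genotype, since Xist had 4608 and 6055 counts in WT 2 and WT 3 and 498 and 822 in Sdha-KO 2 and Sdha-KO 3, and Y-linked Ddx3y had 0 and 143 against 354 and 432. Batch 1 was the other way round, with 0 Xist and 222 Ddx3y counts in WT 1 and 2683 and 0 in Sdha-KO 1, so over all 6 libraries sex did not follow genotype. Sdha itself had 56.0, 65.5 and 72.2 CPM (counts scaled to depth and library composition) in WT and 26.1, 21.0 and 22.8 CPM in Sdha-KO libraries. All 3 Sdha-KO libraries lay below all 3 WT libraries, and the fitted log2 fold change was -1.47 (SE 0.818, edgeR adjusted p = 1.00). Without batch 1 it was -1.64 (SE 0.369, edgeR adjusted p = 0.194), and Sdha passed the threshold when batch was added to that fit (edgeR adjusted p = 0.0327). That fit of 4 libraries leaves little replication, so its p rests largely on spread pooled over genes. Reads come from the 3' end, and whether the remaining Sdha reads came from deleted or undeleted copies was not tested.

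The label of the cells was checked on 13 alveolar macrophage markers, whose summed level was 7967 to 9404 CPM in WT and 6423 to 8380 CPM in Sdha-KO libraries. Fitted differences were negative in 9 of the 13 and positive in 4, and 5 had an unadjusted edgeR p under 0.05. Chil3 and Marco were detected in all 6 libraries, whereas Pparg had 6 counts in Sdha-KO 1 and 449 to 779 counts in the other libraries. Siglecf, which encodes the SiglecF of the gate, had 103, 138 and 132 CPM in WT and 0, 39.6 and 45.3 CPM in Sdha-KO libraries, so it was lower in every Sdha-KO library. Adgre1, which encodes F4/80, had no count in Sdha-KO 1. All Sdha-KO libraries were also below WT for Ear1, Ear2 and Krt79 and above for Car4. Ear1 alone passed (edgeR adjusted p = 0.0261), and it lost the call with the replicate block, with the stricter filter and without WT 1, where edgeR called no gene. Of 8 monocyte and interstitial macrophage markers 5 were tested, all 5 with a positive difference and none past the threshold. The 8 markers summed to 20.6 to 50.8 CPM in WT and 79.5 to 204 CPM in Sdha-KO libraries. Ccr2 alone gave 79.0 of the 79.5 CPM in Sdha-KO 1. Cx3cr1 had 15.2 CPM in WT 1 and 0 in Sdha-KO 1. Ly6c2, not tested, went the other way, with 22 counts in WT 3 and 0 in the other libraries. The 8 conventional dendritic cell markers summed to 5.99 to 27.5 CPM and 5.17 to 174 CPM, with 3 of 4 tested members positive. The 5 neutrophil markers summed to 73.0 to 107 CPM in WT and 136 to 164 CPM in Sdha-KO libraries, all above WT. Of these, 3 of 3 tested members were positive and none passed the threshold. Each single marker overlapped between genotypes, and S100a8 was highest in WT 1 (91.8 CPM). In batches 2 and 3 Csf3r, not tested, went the other way (5.55 and 4.46 CPM in WT, 0 in both Sdha-KO libraries). The 6 plasmacytoid dendritic cell markers summed to 0 to 6.75 CPM and 0.0834 to 17.7 CPM, with Klk1 at 0 in every library. Monocytes, dendritic cells, neutrophils and macrophages all express interferon-stimulated genes, and the part of these markers in the results below was not tested. In sorted bulk RNA, fewer cells of a type and less RNA per cell cannot be told apart.

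No interferon-stimulated gene differed between genotypes past the threshold. Of the 42 members, 32 passed the filter on low counts, and 0 of the 32 had a Benjamini-Hochberg adjusted p under 0.05 in edgeR's quasi-likelihood test over 9963 genes, where 0.0502% of all genes did (smallest adjusted p of a member 1.00). At an unadjusted p under 0.05 the count was also 0, against 2.64% of all genes, and DESeq2 called 0 members where it called 0.181% of all genes (0 at an unadjusted p under 0.05, against 3.33%). With the replicate block edgeR called 0 members and 0% of all genes, and 0 members at an unadjusted p under 0.05, against 2.97%. Fitted differences (log2 fold change, Sdha-KO minus WT) were above 0 in 15 members and below 0 in 17, with a median of -0.05, beside a median of -0.13 and 45% above 0 over all genes tested. Standard errors of the members ran from 0.498 to 2.98 with a median of 2.24, and an SE of 2.24 on the log2 scale is larger than a 4-fold difference. The summed level of the 42 genes was 538, 766 and 777 CPM in WT 1 to 3 and 343, 813 and 949 CPM in Sdha-KO 1 to 3. The genotypes overlapped in this sum, and within batches Sdha-KO was lower in batch 1 and higher in batches 2 and 3. Counted by gene, Sdha-KO was above WT in 7 of the 32 tested members in batch 1 (21.9%, background 29.9%) and below in 12. The other 13 had no count in either batch 1 library. Sdha-KO was above WT in 18 members in batch 2 (56.2%, background 47%) and in 20 in batch 3 (62.5%, background 48.7%).

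**Figure D1:**
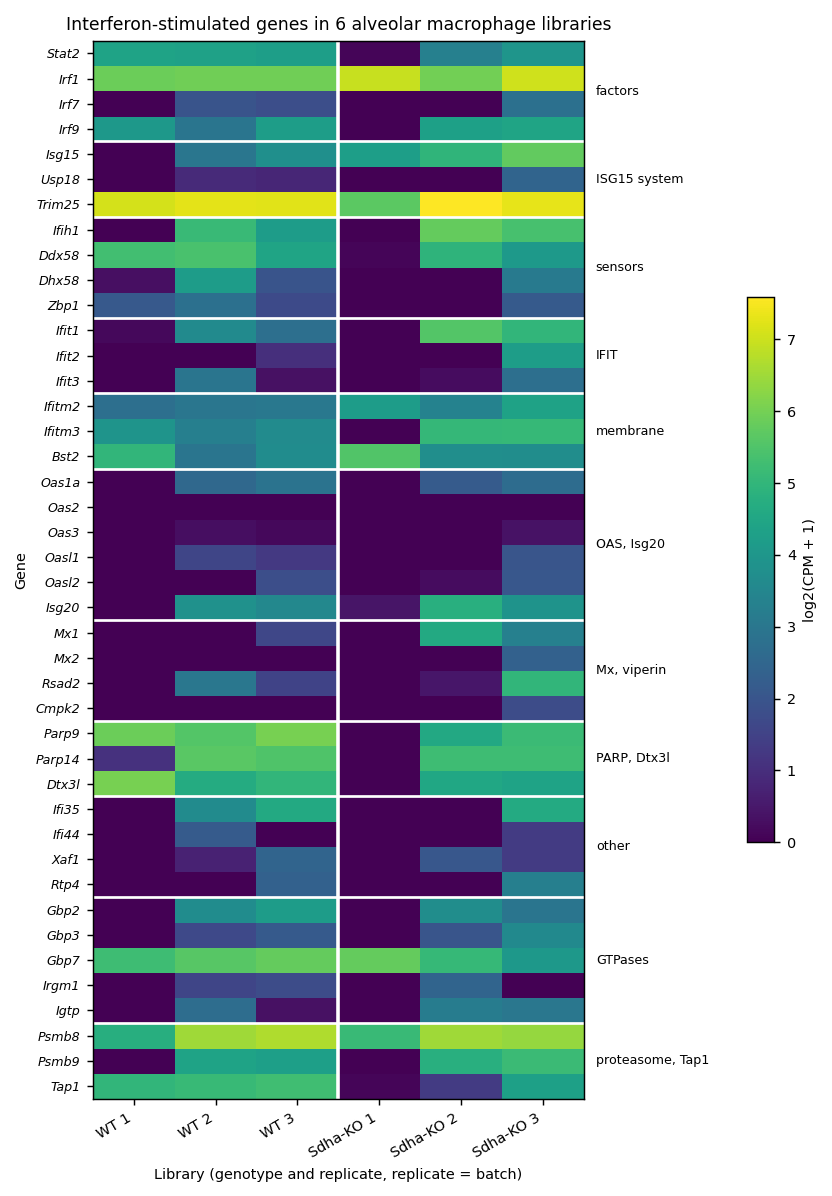
Level of each of the 42 interferon-stimulated genes (rows, grouped by role) in the 6 libraries (columns), as log2(CPM + 1), where the darkest colour is a count of 0. Sdha-KO 1 is dark in 31 rows and WT 1 in 25, while Trim25, Irf1 and Psmb8 are bright in all libraries.

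In 7 of the 32 tested members the 3 libraries of 1 genotype all lay on 1 side of the other 3. Sdha-KO was above in 3 (Irf1, Isg15 and Ifitm2; 9.38% of members), where this held for 5.04% of all genes tested, and below in 4 (Stat2, Parp9, Dtx3l and Tap1; 12.5%), where it held for 9.27%. These shares lie near the background. Among the 4 genes below, Sdha-KO 1 had 0 or 1 count.

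**Figure D2:**
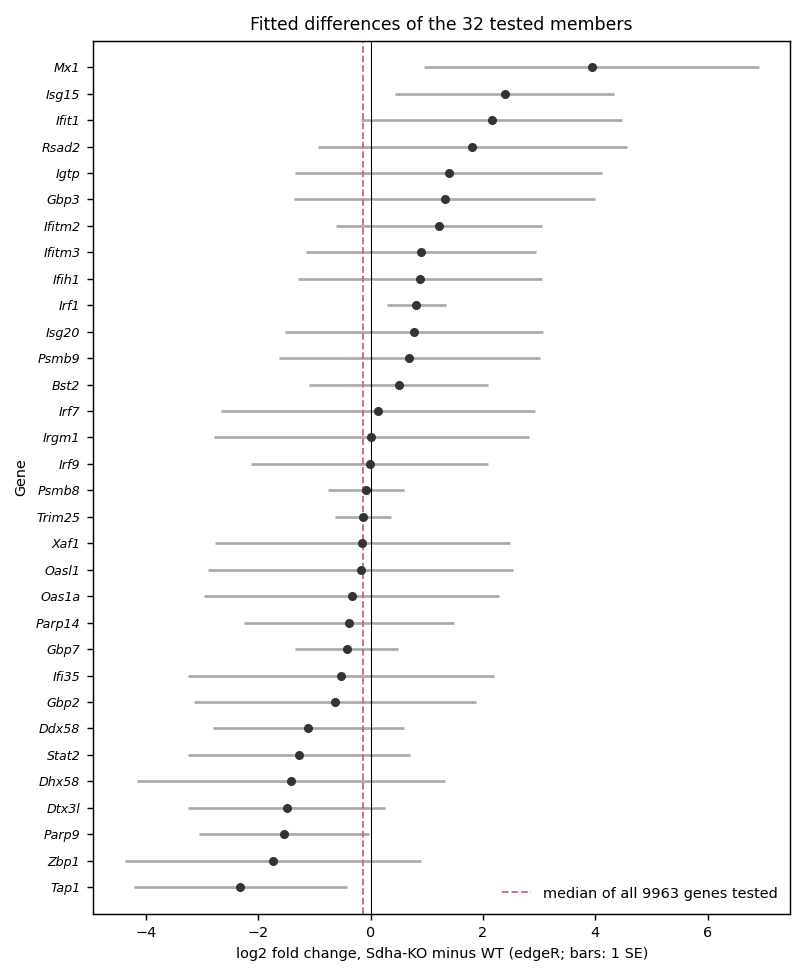
Fitted log2 fold change (horizontal axis, Sdha-KO minus WT) of the 32 tested members (vertical axis), with bars of 1 standard error and a dashed line at the median of all genes tested. Members lie on both sides of 0, from Tap1 at -2.32 to Mx1 at 3.93, and none passed the threshold.

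The signalling factors of the interferon response did not move together. Stat2, the STAT protein particular to type I and type III signalling (chr10:128270559-128292849, plus strand, a protein-coding gene of GENCODE M21 on mm10, as are all members but Mx2), had 20.0, 19.1 and 18.0 CPM in WT 1 to 3 and 0.0834, 8.93 and 14.6 CPM in Sdha-KO 1 to 3. The WT libraries were close to each other and all above the Sdha-KO libraries, which spread widely (log2 fold change -1.27, SE 1.98, edgeR adjusted p = 1.00). Without batch 1 the difference was -0.64 (SE 0.636, edgeR adjusted p = 0.851). Irf1, a transcription factor induced through GAS (chr11:53770014-53778374), had 58.0, 60.6 and 60.5 CPM in WT and 122, 61.2 and 131 CPM in Sdha-KO libraries. Sdha-KO 1 and 3 stood at about the same high level, whereas Sdha-KO 2 was barely above its WT partner (log2 ratio 0.01 in batch 2 and 1.10 in batch 3). The fitted difference was 0.81 (SE 0.528, edgeR adjusted p = 1.00), with 0.67 (SE 0.400, edgeR adjusted p = 0.658) without batch 1. Irf1 had the smallest unadjusted edgeR p of the 32 members, 0.150. Irf9, the DNA-binding partner of STAT2, had 15.7, 6.66 and 17.8 CPM in WT and 0, 19.0 and 20.7 CPM in Sdha-KO libraries, which overlap. Irf7, which amplifies type I interferon production, was at 0 in 3 libraries and at most 5.96 CPM in the others.

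Isg15, a ubiquitin-like protein joined to other proteins during the antiviral response and also secreted, had the clearest separation of the antiviral genes. Its row (chr4:156199424-156200818, minus strand, with no exon of another gene across it) held 0, 31 and 99 counts in WT 1 to 3 and 218, 164 and 357 counts in Sdha-KO 1 to 3, which is 0, 6.88 and 12.6 CPM against 18.2, 30.5 and 53.2 CPM. Each Sdha-KO library was above every WT library. Within batches the log2 ratio of CPM + 1 was 2.00 in batch 2 and 1.99 in batch 3. The fitted log2 fold change was 2.38 (SE 1.95, edgeR adjusted p = 1.00). Without batch 1 it was 2.11 (SE 0.574, edgeR adjusted p = 0.271). When batch was added to the fit of those 4 libraries (the replicate block) the edgeR adjusted p was 0.0560, the smallest of any member under any setting. With 4 libraries and terms for batch and genotype little replication is left, so this p rests largely on spread pooled over genes. Trim25, the ubiquitin ligase that acts on the sensor RIG-I, had the highest mean level of the 42. It had 136, 154 and 150 CPM in WT and 50.3, 191 and 156 CPM in Sdha-KO libraries. Sdha-KO 1 alone lay far from the rest (log2 fold change -0.14, SE 0.498). Without batch 1 the sign changed, to 0.21 (SE 0.253, edgeR adjusted p = 0.902). Usp18, the protease that removes ISG15 and restrains the receptor, had at most 6 counts in any WT library and 0, 0 and 30 in Sdha-KO libraries, and was not tested.

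The sensors of viral nucleic acid gave mixed values. Ifih1, which encodes MDA5, a sensor of long viral RNA, was at 0 in both batch 1 libraries, at 34.4 and 17.3 CPM in WT 2 and 3 and at 54.7 and 40.7 CPM in Sdha-KO 2 and 3. Ddx58, which encodes RIG-I, had 37.9, 41.3 and 20.6 CPM in WT and 0.0834, 29.8 and 16.2 CPM in Sdha-KO libraries. The Sdha-KO library was thus above WT for Ifih1 in batches 2 and 3 and below it for Ddx58 in all 3 batches, with groups that overlap for both genes. Dhx58, the regulator LGP2, and Zbp1, a sensor of nucleic acid in the Z form that can start cell death, were both at 0 in Sdha-KO 1 and 2. In WT libraries Dhx58 had 0.245 to 17.3 CPM and Zbp1 had 2.29 to 5.99 CPM, and Sdha-KO 3 had 7.60 and 3.43 CPM.

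Among the antiviral effectors, Ifit1 and Mx1 had higher values in Sdha-KO in batches 2 and 3. Ifit1, which binds viral RNA caps and blocks their translation (chr19:34640871-34650009, plus strand), had 1, 51 and 46 counts in WT and 0, 248 and 207 counts in Sdha-KO libraries. As CPM this was 0.122, 11.3 and 5.86 against 0, 46.1 and 30.9, so that batch 1 had almost no signal and Sdha-KO 2 and 3 were above both WT libraries of their batches. The log2 fold change was 2.15 (SE 2.32, edgeR adjusted p = 1.00) with 6 libraries and 2.18 (SE 0.591, edgeR adjusted p = 0.271) without batch 1. With the replicate block over 6 libraries it was 1.20, and with 1 library left out it ran from 1.44 (without Sdha-KO 2) to 3.08 (without WT 2). Mx1, a dynamin-like GTPase against influenza viruses, had 0, 0 and 2.04 CPM in WT and 0, 23.4 and 8.79 CPM in Sdha-KO libraries (log2 fold change 3.93, SE 2.98, edgeR adjusted p = 1.00). Its WT level rested on 16 counts in WT 3, and without batch 1 the difference was 3.90 (SE 1.52, edgeR adjusted p = 0.458). Common laboratory strains carry a broken Mx1 allele, and no source used here names the strain. Ifit2 had 8 counts in WT 3 and 119 in Sdha-KO 3 and none elsewhere. Ifit3 had 30 counts in WT 2, 39 in Sdha-KO 3 and at most 2 elsewhere, and its near-copy Ifit3b could share reads with it. Rsad2, which encodes viperin, a radical enzyme that makes a chain-terminating nucleotide, had 32 and 15 counts in WT 2 and 3 and 2 and 209 in Sdha-KO 2 and 3. Cmpk2, its neighbour and partner enzyme, and Mx2, an annotated polymorphic pseudogene on mm10, had counts in Sdha-KO 3 only, 16 and 28. Sdha-KO 3 was the highest library for Ifit2, Rsad2, Cmpk2 and Mx2, and Sdha-KO 2 had 0 to 2 counts of each.

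The membrane proteins that restrict viral entry and release had positive fitted differences for all 3 members, none past the threshold. Ifitm2, which hinders fusion of viruses in endosomes (chr7:140954837-140955987, minus strand), had 5.88, 6.88 and 7.26 CPM in WT and 17.4, 9.30 and 19.8 CPM in Sdha-KO libraries. The WT libraries lay within 1.38 CPM of each other and all Sdha-KO libraries were above them (log2 fold change 1.22, SE 1.84, edgeR adjusted p = 1.00; 1.05, SE 0.800, edgeR adjusted p = 0.758 without batch 1). Its exons overlap those of Gm45717 on the same strand, so its count is uncertain. Ifitm3, its close paralog, had 14.3, 8.65 and 11.7 CPM in WT and 0, 32 and 32.9 CPM in Sdha-KO libraries. Here Sdha-KO 1 was the lowest and Sdha-KO 2 and 3 the highest of the 6 (log2 fold change 0.90, SE 2.05; 1.68, SE 0.537, edgeR adjusted p = 0.363 without batch 1). Bst2, or tetherin, which holds budding virus on the cell surface, had 30.8, 6.66 and 11.8 CPM in WT and 44.9, 12.5 and 12.2 CPM in Sdha-KO libraries. Bst2 was highest in batch 1 in both genotypes, and the genotypes overlapped.

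**Figure D3:**
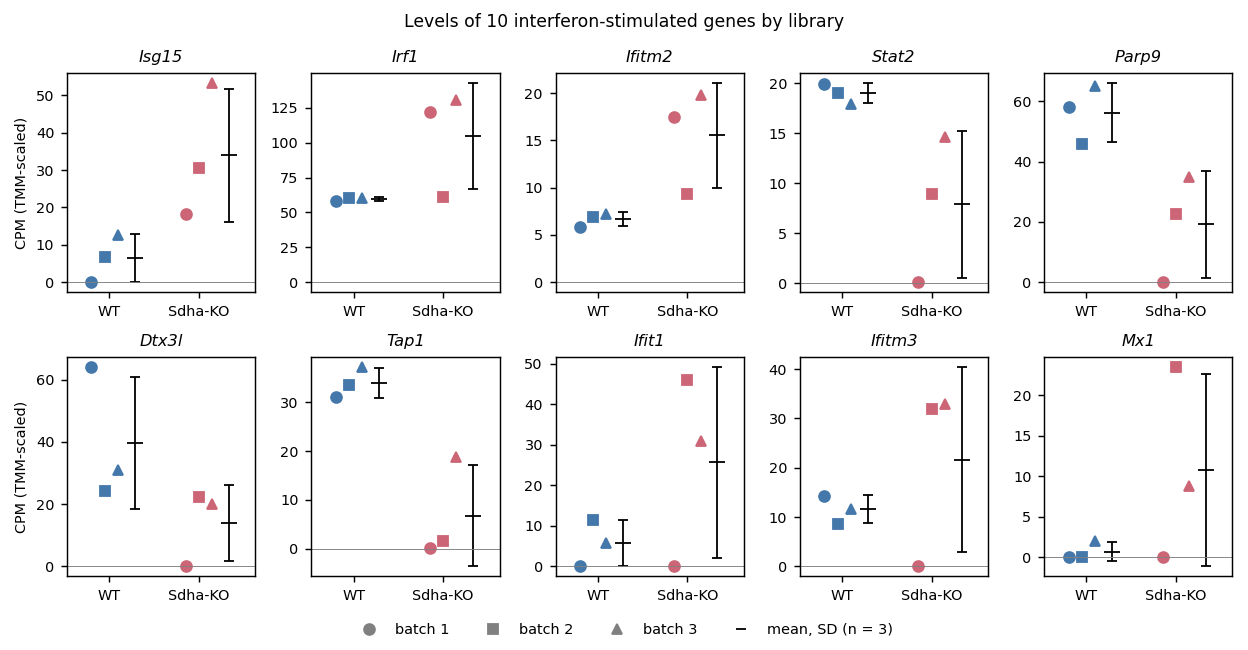
CPM (vertical axis, own scale for each gene) of 10 interferon-stimulated genes in the 3 WT (blue) and 3 Sdha-KO (red) libraries, with batches as symbols and the mean and SD of each group beside them. Isg15, Irf1 and Ifitm2 have all Sdha-KO libraries above WT and Stat2, Parp9, Dtx3l and Tap1 have all of them below, while Ifit1, Ifitm3 and Mx1 separate only in batches 2 and 3.

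The oligoadenylate synthetases, which make the messenger that activates RNase L, were low or not detected. Oas2 had no count in any library and Oas3 had 0 to 2 counts, where the upper limit of a count of 0 is 3 counts (0.250 to 0.666 CPM, counting error alone). Oas1a had 4.88 and 6.37 CPM in WT 2 and 3 and 3.53 and 5.37 CPM in Sdha-KO 2 and 3, and was at 0 in batch 1. Oasl1, a translational brake on Irf7, had at most 2.98 CPM, and Oasl2 had 20 counts in WT 3, 1 in Sdha-KO 2 and 21 in Sdha-KO 3. Isg20, an exonuclease that degrades viral RNA, had 0, 13.3 and 10.7 CPM in WT and 0.334, 26.8 and 14 CPM in Sdha-KO libraries. Oas1a has a near-identical copy, Oas1g, and no source used here says how reads with several matches were counted.

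The PARP9 group had negative fitted differences for all 3 members, none past the threshold. PARP9 and DTX3L form a complex that adds ubiquitin and ADP-ribose to histones and viral proteins, and their genes lie head to head on chromosome 16 (Parp9 at 35938470 to 35972605 on the plus strand, Dtx3l at 35926511 to 35939151 on the minus strand). Parp9 had 58.1, 45.7 and 64.9 CPM in WT and 0, 22.7 and 34.9 CPM in Sdha-KO libraries (log2 fold change -1.55, SE 1.52, edgeR adjusted p = 1.00). Dtx3l had 64.0, 24.2 and 30.8 CPM in WT and 0, 22.1 and 20.0 CPM in Sdha-KO libraries (log2 fold change -1.50, SE 1.76, edgeR adjusted p = 1.00). Both were abundant in WT 1, with 474 and 522 counts, and had no count in Sdha-KO 1, which had the larger total. Without batch 1 the difference was -0.93 for Parp9 (SE 0.424, edgeR adjusted p = 0.509) and -0.37 for Dtx3l (SE 0.490, edgeR adjusted p = 0.914). Parp14, a related ADP-ribosyltransferase beside them on the chromosome, had 1.10, 49.5 and 44.4 CPM in WT and 0, 36.3 and 36.5 CPM in Sdha-KO libraries. The exons of Parp9 and Dtx3l overlap at their starts on opposite strands, and no source used here says whether counting used strand.

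Of the interferon-inducible GTPases, which attack the vacuoles of intracellular microbes, Gbp7 had the highest level. Gbp7 had 36.4, 47.9 and 54.9 CPM in WT and 54.9, 32.9 and 15.4 CPM in Sdha-KO libraries (log2 fold change -0.43, SE 0.918). Sdha-KO 1 was the highest Sdha-KO library, and without batch 1 the difference was -1.08 (SE 0.484, edgeR adjusted p = 0.504). Gbp2 was at 0 in batch 1 and had 12 and 17.2 CPM in WT 2 and 3 and 12.1 and 6.71 CPM in Sdha-KO 2 and 3. Gbp3 had at most 3.44 CPM in WT libraries and 0, 2.98 and 11.2 CPM in Sdha-KO libraries. Irgm1, a regulator of the other immunity-related GTPases and of autophagy, had at most 24 counts in a library. Igtp, also called Irgm3, had 25 and 2 counts in WT 2 and 3 and 44 and 47 in Sdha-KO 2 and 3. These families hold close copies, and exons of Igtp overlap those of Irgm2 on the same strand.

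Of the immunoproteasome genes and their neighbour Tap1, Psmb9 had a positive fitted difference and Psmb8 and Tap1 had negative ones, none past the threshold. Psmb8 and Psmb9 encode catalytic subunits that replace the constitutive ones and change which peptides are cut, and Tap1 encodes a subunit of the pump that carries peptides to MHC class I. Tap1 had 31.1, 33.5 and 37.2 CPM in WT and 0.0834, 1.49 and 18.8 CPM in Sdha-KO libraries (log2 fold change -2.32, SE 1.90, edgeR adjusted p = 1.00). The WT libraries lay close together and above all Sdha-KO libraries, with 254, 151 and 292 counts against 1, 8 and 126. Without batch 1 the difference was -1.78 (SE 0.969, edgeR adjusted p = 0.606). Psmb9 starts next to Tap1 on the other strand of chromosome 17 (Psmb9 at 34181987 to 34187764, Tap1 at 34187553 to 34197225), and their first exons overlap. Psmb9 was at 0 in batch 1 and had 20.2 and 18.3 CPM in WT 2 and 3 and 26.8 and 35.3 CPM in Sdha-KO 2 and 3, so this pair went in opposite directions in both batches. Psmb8 had 25.9, 90.1 and 103 CPM in WT and 34.1, 90.2 and 82.3 CPM in Sdha-KO libraries. Both batch 1 libraries were low, and the genotypes overlapped (log2 fold change -0.08, SE 0.676). Without batch 1 the difference was -0.15 (SE 0.280, edgeR adjusted p = 0.951).

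The other members were low. Ifi35, a partner of the adaptor NMI, had 0, 52 and 182 counts in WT and 0, 0 and 161 in Sdha-KO libraries. Xaf1, which promotes cell death, had 35 counts in WT 3 and at most 17 elsewhere. Rtp4, a chaperone that also restrains RNA viruses, had 32 counts in WT 3, 58 in Sdha-KO 3 and none elsewhere. Ifi44 had 16 counts in WT 2 and 10 in Sdha-KO 3 and none elsewhere. Rtp4, Ifi44, Usp18, Ifit2, Ifit3, Oas2, Oas3, Oasl2, Mx2 and Cmpk2 are the 10 members that did not pass the filter on low counts.

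Within batches 2 and 3, Isg15, Ifit1, Ifitm3 and Mx1 had higher values in Sdha-KO, and Tap1, Gbp7 and Parp9 had lower ones. Both Sdha-KO libraries were above both WT libraries in 13 of the 32 tested members (40.6%), against 20.6% of all genes tested, and below in 6 (18.8%), against 23.7%. The 13 were Irf1, Irf9, Isg15, Trim25, Ifih1, Ifit1, Ifitm2, Ifitm3, Bst2, Isg20, Mx1, Igtp and Psmb9, and the 6 were Stat2, Parp9, Parp14, Dtx3l, Gbp7 and Tap1. Several of the 13 differ very little, such as Trim25 and Bst2 with log2 ratios of 0.06 and 0.04 in batch 3. In these 4 libraries edgeR called 0 of 35 members, against 0.251% of 10757 genes, and at an unadjusted p under 0.05 it gave 4 (11.4%), against 10.2% of all genes. This share lies near its background. The 4 were Isg15, Ifit1, Ifitm3 and Mx1 (unadjusted edgeR p of 0.00686, 0.00664, 0.0150 and 0.0344). All had higher values in Sdha-KO, where the background in that direction was 5.29%, a direction taken after the values were seen. Ifit1 and Ifitm3 were named in full after these values were seen. Members were chosen with earlier results of these data known, so these shares carry no test. With batch as a block as well, edgeR called 0 of the 35, against 3.01% of all genes, and gave 7 at an unadjusted p under 0.05 (20.0%), against 11.7%. These were the same 4 with higher values (background 5.8%) and Parp9, Tap1 and Gbp7 with lower values (background 5.93%). The median log2 fold change of the 35 was 0.15, beside -0.02 over all genes. The balance of sex-linked transcripts went with genotype in these libraries. The summed markers of monocytes and interstitial macrophages were higher in Sdha-KO (34.0 and 50.8 CPM in WT, 93.0 and 204 CPM in Sdha-KO), although Ly6c2 had counts in WT 3 only. The conventional dendritic cell sum was higher as well (5.99 and 27.5 against 85.7 and 174 CPM). The neutrophil sum was also higher (94.3 and 73.0 against 137 and 136 CPM), although its member Csf3r was lower. The part of sex and of these markers in these values was not tested.

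**Figure D4:**
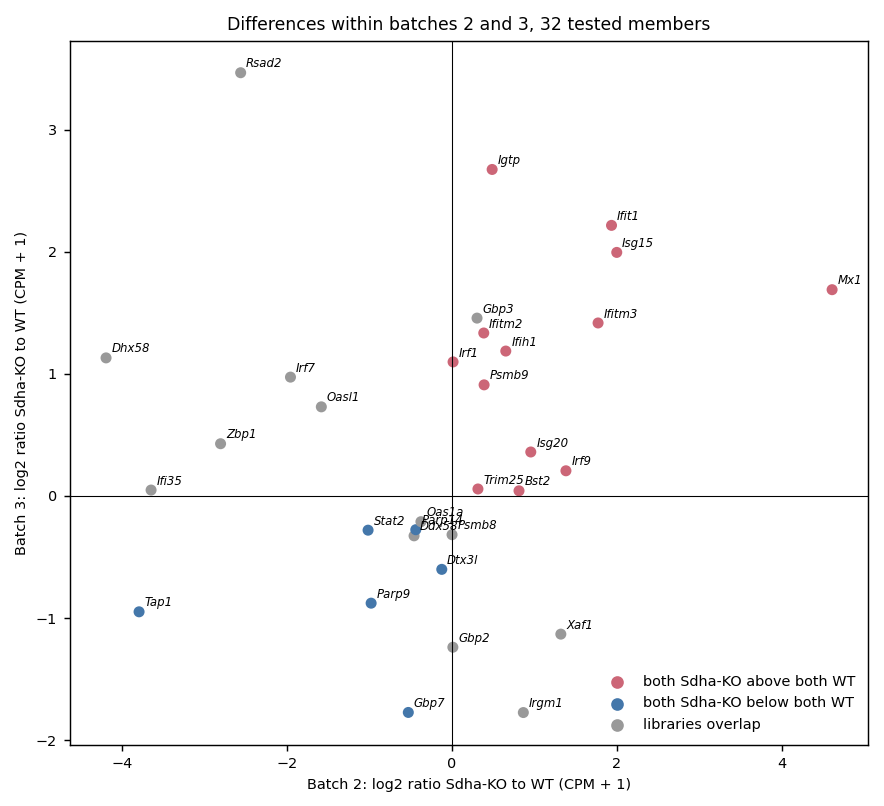
Log2 ratio of Sdha-KO to WT, from CPM + 1, in batch 2 (horizontal axis) and batch 3 (vertical axis) for the 32 tested members, coloured by whether both Sdha-KO libraries lie above or below both WT libraries. The 13 members at upper right include Ifit1 and Isg15 with ratios near 2 in both batches, and Tap1 and Gbp7 lie at lower left.

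The promoter sequences and the levels were set side by side. Of the 27 tested members with a promoter entry, 15 held an ISRE core, and 10 of these had a positive fitted difference (median log2 fold change 0.88). Among the 12 without one in this window, 4 were positive (median -0.11). Over all genes tested 45% were positive (median -0.13). In batches 2 and 3, 7 of the 15 had both Sdha-KO libraries above both WT libraries and 2 had both below. Among the 12 these counts were 5 and 2. The shares over all genes tested were 20.6% above and 23.7% below. The counts of members are over genes that share libraries, so they carry no test. Isg15, Ifit1 and Ifitm2, printed above with their ISRE cores, were among the positive genes, and Stat2, printed with 1, was not. These stretches were chosen by level, and Ifit1 after its values were seen, so their directions say nothing about the element.

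Genes upstream of the members showed few interferon transcripts. Of 12 interferon genes, 9 had no count in any library, including Ifng, Ifna4, Ifnl2 and Ifnl3, and none of the 12 passed the filter. Ifnb1, the main type I interferon of macrophages, had 0, 12 and 8 counts in WT and 0, 2 and 65 in Sdha-KO libraries. Ifnz had 235 counts in Sdha-KO 1 and at most 3 elsewhere, and Ifnk had counts in WT 3 only. Of 9 receptor and kinase genes 8 were tested, and 0 passed, with 4 positive and 4 negative differences. Jak1, the kinase shared by the interferon receptors, had 154 ± 45.8 CPM in WT and 183 ± 6.73 CPM in Sdha-KO libraries, Ifngr1 had 84.1 ± 15.4 and 69.0 ± 59.7, and Ifnar2 had 45.2 ± 9.61 and 42.8 ± 38.2 (mean ± SD, n = 3). Ifngr1 and Ifnar2 had 1 count each in Sdha-KO 1. In batches 2 and 3 both were higher in both Sdha-KO libraries, with 79.9 and 71.2 CPM in WT against 106 and 101 CPM for Ifngr1, and 34.4 and 48.6 against 54.7 and 73.6 CPM for Ifnar2.

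Of 16 tested genes of viral sensing and interferon induction 0 passed, with 8 positive and 8 negative differences. The transcription factors Irf2 (224 ± 54.9 CPM in WT and 202 ± 27.4 CPM in Sdha-KO) and Irf8 (112 ± 34.1 and 131 ± 23.3) and the DNA sensor Aim2 (102 ± 64.7 and 54.9 ± 48.5) were the most abundant (SD, n = 3). Aim2 had no count in Sdha-KO 1, and in batches 2 and 3 it had 58.4 and 71.0 CPM in WT against 72.9 and 91.8 CPM in Sdha-KO libraries. All 3 Sdha-KO libraries were below WT for 3 of the 16 (Tlr7, Irf3 and Ikbke, named after their values were seen) and above for 0, beside 9.27% and 5.04% of all genes. Of 9 tested brakes on the pathway 0 passed, with 4 positive and 5 negative. The phosphatase Ptpn6 had 215 ± 28.2 and 149 ± 34.1 CPM, and the dNTP hydrolase Samhd1 had 179 ± 33.8 and 86.6 ± 54.8 CPM (SD, n = 3). Socs3, which blocks JAK kinases below cytokine receptors, had 0.123, 35.5 and 51.2 CPM in WT and 95.8, 134 and 190 CPM in Sdha-KO libraries. All 3 Sdha-KO libraries were above WT for Socs3 and Ptpn2 of this list and below for Samhd1, Trex1 and Irf2bp1, where Ptpn2, Trex1 and Irf2bp1 were named after their values were seen. These are 2 and 3 of 9 tested genes, beside the 5.04% above and 9.27% below over all genes.

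Of 47 other interferon-induced genes tested 0 passed, with 20 positive and 27 negative differences and a median of -0.24. The most abundant were Shisa5 (285 ± 70.4 CPM in WT and 277 ± 115 in Sdha-KO), Slfn2 (134 ± 48.7 and 211 ± 127) and Ly6e (137 ± 46.6 and 144 ± 61.0; SD, n = 3), with overlapping groups for each. Of 16 other genes of MHC class I presentation 0 passed, and 14 had negative differences and 2 positive, with a median of -0.41 beside -0.13 over all genes. B2m, the light chain of MHC class I, had 2489 ± 636 CPM in WT and 2030 ± 806 CPM in Sdha-KO libraries, the chaperone Calr had 1088 ± 258 and 784 ± 164, and the heavy chain H2-D1 had 759 ± 97.0 and 591 ± 182 (SD, n = 3). Of 3 constitutive proteasome genes replaced in the immunoproteasome 0 passed and all 3 were positive: Psmb6 had 86.8 ± 37.6 and 122 ± 33.6 CPM, Psmb5 had 69.0 ± 17.9 and 84.3 ± 34.4, and Psmb7 had 49.7 ± 14.1 and 58.6 ± 8.89 (SD, n = 3). Of 5 other interferon-inducible GTPases tested 0 passed. Gbp8 had 43.4 ± 14.4 CPM in WT and 12.7 ± 12.6 CPM in Sdha-KO libraries, Gbp5 had 2.64 ± 4.01 and 8.51 ± 8.15, and Irgm2 had 2.41 ± 2.05 and 3.20 ± 3.32 (SD, n = 3).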

How the data were processed

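RNA was measured in 3 WT and 3 Sdha-KO libraries of sorted alveolar macrophages with a QuantSeq 3' kit, per the labels' protocols, so counts do not scale with transcript length. The authors deposited raw counts per gene symbol, made with Bowtie2 and bedtools on mm10 per the submitters' processing notes. The sources used here give no versions or gene annotation, and do not say how multiply matching reads or strand were handled. Exons of 18 of the 42 members overlap another GENCODE M21 gene, 12 of them only on the other strand, and their counts are uncertain.

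Counts were fitted with edgeR 4.0.16 in R 4.3.3 (filterByExpr at 10 counts, TMM scaling, glmQLFit with robust dispersions and glmQLFTest, genotype as the only term), with Benjamini-Hochberg adjustment over 9963 genes and a threshold of 0.05. The fit was also run on simulated data, from which no conclusion is drawn here. The biological coefficient of variation, the fitted relative spread between libraries, was 1.40 over 6 libraries and 0.677 without both batch 1 libraries. CPM values use TMM-scaled library sizes, within-batch ratios use CPM + 1, and the SE is the log2 fold change divided by the square root of F. Alternatives were RLE factors, library totals, 2 other filters, DESeq2 1.42.0, other thresholds, the replicate block, and leaving out libraries or ribosomal RNA rows. Replicate numbers pair the samples, since the labels give the same number as a batch. Deviations from the group means correlated at 0.155, 0.117 and 0.126 within pairs and at -0.152 to 0.111 between libraries of different numbers. No source says that libraries come from separate mice. WT 1 (0 Xist and 222 Ddx3y counts) and WT 2 (4608 and 0) differ in sex, so they are not repeats of a single mouse. For the other libraries this is not settled. WT 3, Sdha-KO 2 and Sdha-KO 3 held both Xist and Ddx3y counts, and the reason was not tested. A p-value covers only the spread of the libraries, part of which may be technical. No molecular identifiers are named.

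Members and lists were chosen with earlier results of these data known. Full values were given for members past the threshold, the 12 most abundant, those whose genotypes did not overlap and the 5 with the smallest unadjusted p. From other lists, those past the threshold or else the 3 most abundant were named, and any others are said to be named after their values were seen. A gene of the interferon pathway is not reported here.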

Additional observations from a re-analysis of the deposited data

How the results depend on the processing

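The count of interferon-stimulated genes past the threshold was 0 under every one of the 18 settings run, with a smallest adjusted p of 0.0560 (edgeR, 4 libraries with the replicate block). The 18 include the main fit and thresholds of 0.01 and 0.1 on it. Those thresholds could not change the count, since the smallest edgeR adjusted p of a member there was 0.9998. In the 4 libraries with the replicate block, Isg15 (edgeR adjusted p = 0.0560) and Ifit1 (0.0624) were under 0.1. Over all genes edgeR called 5, and 9 with library totals alone, 48 with no filter, 0 with the stricter filter, 0 with the replicate block (296 at an unadjusted p under 0.05), 27 without the 2 libraries of batch 1, 324 without them under the replicate block, and DESeq2 called 18. Leaving out 1 library gave 0 (without WT 1) to 13 (without WT 3), with 12 without WT 2, 3 without Sdha-KO 1 and 2 without Sdha-KO 3. Scaling by library totals moved the median of all genes from -0.13 to 0.05 and that of the members to 0.076, with 17 of 32 members above 0. The members' median log2 fold change of -0.05 was -0.33 with the replicate block, 0.15 without the 2 libraries of batch 1, 0.20 without them under the block, and -0.47 (without WT 1) to 0.43 (without Sdha-KO 1) when 1 library was left out, so its sign changed with the library left out. The replicate block changed no member's call, and among the 4 libraries of batches 2 and 3 it brought Sdha past the threshold (edgeR adjusted p from 0.194 to 0.0327). In those 4 libraries the block leaves little replication, and the genes called rose from 27 to 324. Of 193 pairs of a followed gene and a setting, 184 kept the sign. Psmb8 was at 0.13 with library totals and 0.027 with the replicate block, and at -0.49 to 0.25 with 1 library left out. Trim25 was at 0.023 with library totals, 0.21 without batch 1 and 0.20 without it under the block, and at -0.49 to 0.25 with 1 library left out. Mx1 went to 9.30 without WT 3 and Tap1 to -5.44 without Sdha-KO 3. The cause was not tested. The Oas, Irg and Ifit2 values rest on few counts. WT 1 and Sdha-KO 1 had the highest total counts and the fewest rows with counts (7893 and 5438, against 11383 to 13050 in the other libraries). The ribosomal RNA row Rn45s took 20.9% (Sdha-KO 1) to 57.6% (WT 2) of a library's counts.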

Other observations

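The genes of the other lists named here were chosen after their values were seen. Of 47 other interferon-induced genes tested, 4 had all Sdha-KO libraries below all WT libraries and 0 had them above, beside 9.27% and 5.04% of all genes. Uba7, the enzyme that activates ISG15 for conjugation, had 542, 148 and 445 counts in WT 1 to 3 and 0, 33 and 51 counts in Sdha-KO 1 to 3, or 52.0 ± 17.3 against 4.58 ± 4.03 CPM (SD, n = 3). Its WT libraries were all above its Sdha-KO libraries, the opposite order to Isg15, and it did not pass (log2 fold change -3.51, SE 1.76, edgeR adjusted p = 1.00). Ccl5, a chemokine, had 0, 16 and 108 counts in WT and 983, 61 and 331 in Sdha-KO libraries (log2 fold change 3.04, SE 1.84, edgeR adjusted p = 1.00). Sp100, a nuclear body protein, had 0, 18 and 6 counts in WT and 641, 0 and 45 in Sdha-KO libraries (log2 fold change 3.66, SE 2.69, edgeR adjusted p = 1.00). Both had their highest count in Sdha-KO 1, and the genotypes overlapped. Gbp6 had 17, 30 and 12 counts in WT and Gbp10 had 25, 5 and 27, and both had no count in any Sdha-KO library. Gbp6 did not pass (edgeR adjusted p = 1.00), Gbp10 was not tested, and these genes have close copies that can share reads. Psmb10, the remaining catalytic subunit of the immunoproteasome, had 125, 52.1 and 95.5 CPM in WT and 0, 29.0 and 33.7 CPM in Sdha-KO libraries, so Psmb8, Psmb9 and Psmb10 of this complex showed no common direction (Psmb10 log2 fold change -2.12, SE 1.57, edgeR adjusted p = 1.00). Pdia3, a disulphide isomerase of the MHC class I loading complex, had 557, 388 and 521 CPM in WT and 175, 189 and 296 CPM in Sdha-KO libraries. For Pdia3 and Psmb10, 2 of the 3 such genes among 16 of MHC class I presentation, all Sdha-KO libraries were below WT. Pdia3 had signal in every library, and it did not pass over all genes (log2 fold change -1.15, SE 0.343, edgeR adjusted p = 1.00).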
